A study of Mus musculus with 20 samples.

Results

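Collagen genes encode the triple-helical proteins that hold muscle fibres, bundles and tendons together. They were taken as every gene of the mouse annotation whose symbol reads Col, a number, the letter a and a number, and nothing more. This gave 44 genes of the 53465 in the tables. By the known build of their proteins, 11 are fibrillar, 6 belong to the type IV collagens of basement membranes and 6 to the type VI collagens of beaded filaments. The other 21 are 9 fibril-associated collagens, 4 transmembrane collagens, 3 of hexagonal networks, 2 multiplexins and 3 of other build.

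The samples were 20 poly(A)-selected RNA libraries from muscle of wild-type (WT) mice, in 4 groups of 5, formed by sex (female or male) and by training (non-trained or trained). All 4 groups share the WT genotype, and no transgene or agent is named. The title places the series in work on exercise and age-related decline, yet the labels give no age, no muscle, no training protocol, no collection time and no batch. Libraries are numbered here by order of accession, which only names them, and no label ties a library to its own animal, so a p-value reflects only how these samples vary.

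The skeletal muscle identity held in every library: 10 marker genes, among them the myosin heavy chain genes, summed to between 121289 and 166019 CPM. CPM are counts scaled to a common library size with the TMM factors of edgeR. Library totals ran from 22043145 to 38483572 counts. Of 6 cartilage markers 1 passed the filter on low counts, and none of 4 bone markers did. The RNA is from whole tissue, so fewer cells of a type and less RNA per cell cannot be told apart.

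Fibrillar collagens such as types I, III and V assemble into the cross-striated fibrils of the layers around muscle and its bundles. Type IV chains form a sheet-like network in the basement membrane that wraps each fibre, capillary and nerve, and type VI filaments lie between that sheet and the fibrils. In muscle the fibrillar and type VI chains are known mainly as products of fibroblast-like cells, and mutations in type VI genes cause inherited muscle disease.

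Across the 20 libraries Col3a1, the type III chain, had the highest mean level per length, 44.8 TPM. TPM are transcript levels that take account of length and add up to the same total in each library. It was followed by Col4a1 at 34.2 TPM, the major type IV chain, and by Col1a2 at 29.1 TPM. The partner chains Col4a2 and Col1a1 stood at 21.4 and 18.1 TPM, and the 3 classical type VI chains Col6a2, Col6a1 and Col6a3 at 17.3, 17.0 and 13.9 TPM. Col7a1, the anchoring fibril chain, had 11.7 TPM and Col15a1, a multiplexin, 11.4 TPM. The remaining 34 members had mean levels from 7.02 TPM (Col5a3) down to 0.0300 TPM (Col6a4). Of the 44 members 38 passed the filter on low counts and were tested. The other 6, Col2a1, Col6a4, Col9a2, Col9a3, Col10a1 and Col25a1, had mean levels of 0.0300 to 0.314 TPM and were listed at 0 in 1 to 8 libraries each. Each gene's range over libraries overlapped that of the next in this order: the range of Col3a1, 3.73 to 127 TPM, held that of Col4a1, 12.8 to 46.6 TPM.

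The deposited TPM divide by a transcript length that the authors' program estimated anew in each library, and for some collagens this length moved. For Col3a1 it ran from 2597 to 4797 bases, where the longest annotated transcript has 5564, and for Col7a1 its median was 2936 against 9250. With CPM per kilobase of the longest transcript instead, a scale chosen after the data were seen, Col3a1 stayed first and Col1a2 came before Col4a1. On that scale Col7a1 moved from place 9 to place 13.

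**Figure D1:**
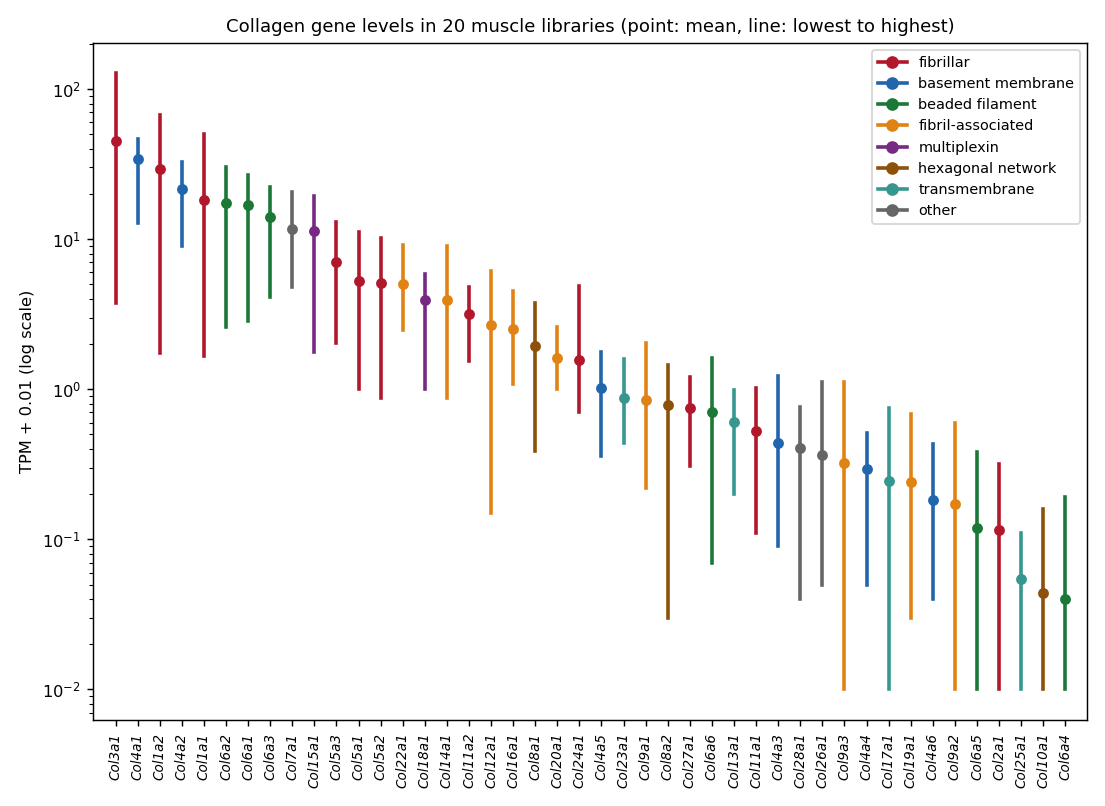
Mean TPM of each of the 44 collagen genes (points, log axis with 0.01 added) with the lowest and highest of 20 libraries (lines), coloured by class. Fibrillar, type IV and type VI chains fill the 8 highest places, from Col3a1 at 44.8 to Col6a3 at 13.9 TPM, and most lines span more than the distance to several neighbours.

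Summed over members, fibrillar collagens stood at 97.3 ± 58.2 TPM for non-trained and 78.6 ± 27.8 for trained females, 171 ± 70.9 for non-trained and 115 ± 41.3 for trained males (SD, n = 5 each). Type IV sums were 52.8 ± 21.8, 52.9 ± 4.95, 69.6 ± 10.6 and 54.8 ± 6.28 TPM in the same order. Type VI sums were 42.1 ± 20.3, 37.3 ± 12.4, 64.6 ± 13.9 and 52.1 ± 12.1 TPM. All 3 classes had their highest mean in non-trained males, and the values of the 4 groups overlapped in each class.

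As a share of all collagen TPM, fibrillar genes took 37.3% ± 9.27, 35.8% ± 5.86, 46.1% ± 6.18 and 41.0% ± 7.15 in that order of groups (SD, n = 5 each). The type IV share was 24.0% ± 6.22, 25.8% ± 6.52, 19.9% ± 3.14 and 20.6% ± 3.63. The type VI share stayed closer together, between 17.1% ± 3.43 in trained females and 19.1% ± 1.06 in trained males. The type IV share was lowest, 14.9%, in male non-trained library 4, the library with the highest fibrillar share, 55.9%. It was highest, 37.1%, in female trained library 2, where the fibrillar share was 26.6%. Shares are parts of the same total, so a high fibrillar share by itself lowers the others. In TPM the type IV sums of male non-trained library 4 and female trained library 2, 76.0 and 52.2, were the medians of their groups.

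**Figure D2:**
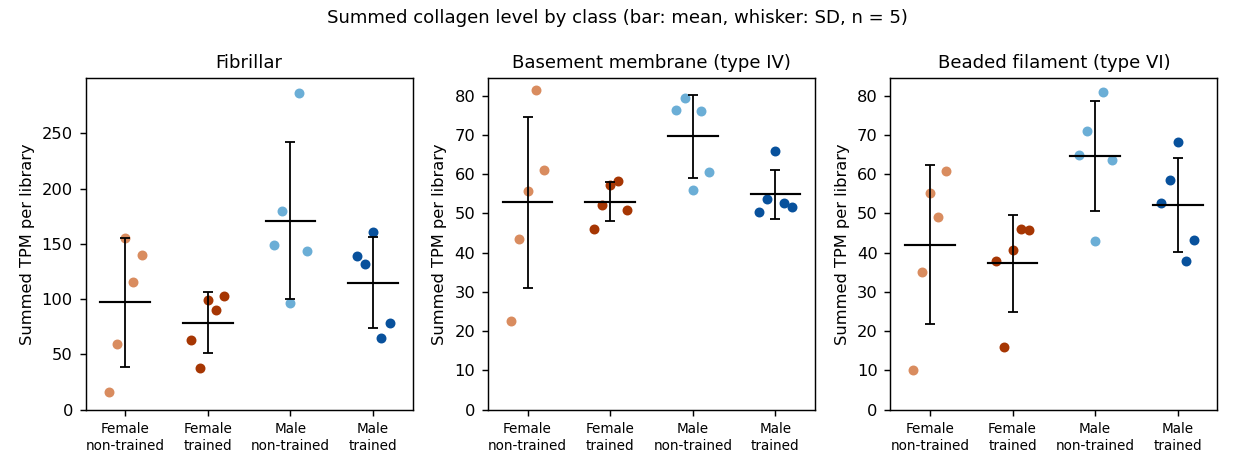
Summed TPM per library for fibrillar, type IV and type VI collagens in the 4 groups (points are libraries, the bar is the mean and the whisker the SD, n = 5). Male non-trained library 4 reached 286 TPM of fibrillar collagen and female non-trained library 1 only 16.3 TPM, and the groups overlap in all 3 panels.

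The spread of collagen levels over libraries was wide beside that of all genes. The SD of log2 CPM over the 20 libraries had a median of 0.69 over the 38 members that passed the filter on low counts, against 0.28 over the 15709 genes that passed it. By class the median was 0.73 for fibrillar, 0.55 for type IV and 0.76 for type VI members. Col4a2 and Col4a1, the 2 common basement membrane chains, were among the steadiest members with SDs of 0.33 and 0.40, while Col3a1 reached 1.15 and Col1a2 1.12.

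A single library, female non-trained 1, held the lowest value for 30 of these 38 members. Its collagens summed to 69.7 TPM, where the other 19 libraries had 140.7 to 511 TPM. Its type I chain Col1a1 stood at 1.66 TPM and its type IV chain Col4a1 at 12.8 TPM. Markers of other cell types were low there too: the 8 fibroblast markers summed to 320.2 CPM against a median of 909 CPM in its group. The 7 tenocyte markers summed to 20.6 CPM against 269.6, and the 7 endothelial markers to 204 against 286. Their part in the collagen values was not tested. Male non-trained library 4 held the highest value for 14 of the 38 members. Some differences and correlations below are also given without female non-trained library 1. Class sums and shares, spreads, chain ratios and counts of members above 0 include it.

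Between non-trained males and females, Col6a6 and Col4a4 were higher in males, and both are minor chains of their class. Col6a6 encodes a long type VI chain and Col4a4 a type IV chain known from the kidney filter. They were 2 of 38 members tested (5.26%), beside 5.21% of all 15709 genes, so the share was near the background. Both were higher, beside 3.14% of all genes called higher and 2.07% called lower. At an unadjusted p under 0.05 there were 8 members, beside 21.7% of all genes. Members were called at a Benjamini-Hochberg adjusted p under 0.05 from the edgeR quasi-likelihood test, adjusted over all genes.

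Col4a4 (ENSMUSG00000067158) stood at 2.91, 3.33, 3.18, 3.03 and 2.30 CPM in the 5 non-trained male libraries. The 5 non-trained female libraries had 0.308, 1.22, 1.43, 0.703 and 1.18 CPM. Every male library lay above every female one, as for 3.98% of all genes, and female library 1 was the lowest of all. No member lay wholly lower in males, beside 2.39% of all genes. The log2 difference was 1.61 (SE 0.33, edgeR adjusted p = 0.0076), and it ran from 1.37 to 1.79 with 1 library left out at a time.

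In trained mice the same gene had 1.97, 2.24, 1.96, 1.93 and 1.63 CPM in males and 1.55, 0.573, 2.54, 1.39 and 1.32 CPM in females, and the 2 sets overlapped. The log2 difference there was 0.41 (SE 0.33, edgeR adjusted p = 0.53). The difference between these 2 sex differences, tested as the sex by training interaction, was -1.20 (SE 0.47) and did not pass (edgeR adjusted p = 0.999). Among trained and non-trained males the 5 and 5 Col4a4 values did not overlap either, with all trained values lower, which 0.554% of all genes also showed. That log2 difference, -0.60, did not pass (SE 0.32, edgeR adjusted p = 0.99).

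Col4a4 lies on the minus strand of chromosome 1 (GRCm38, 82448423 to 82586849) and starts 71 bases from Col4a3, which runs the other way on the plus strand. The stretch between the 2 start sites, chr1:82586850-82586920 of GRCm38.p6 from RefSeq, is shown because both genes are read outward from it, and it is given on the minus strand, 5′ to 3′ toward Col4a4.
Col4a4 and Col4a3 shared promoter: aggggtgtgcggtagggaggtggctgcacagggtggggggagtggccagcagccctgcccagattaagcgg
Col4a3, the gene on its other side, had 2.69, 1.80, 2.53, 1.94 and 1.44 CPM in non-trained males and 0.475, 1.61, 1.36, 1.98 and 1.22 CPM in non-trained females. These sets overlapped, and the log2 difference of 0.65 (SE 0.35) did not pass (edgeR adjusted p = 0.28). The pairs Col4a1 with Col4a2 on chromosome 8 and Col4a5 with Col4a6 on the X chromosome are also read outward from adjoining starts. The annotated Col4a1 and Col4a2 genes overlap by 22 bases on opposite strands. The library kit keeps strand, but the strand setting of the counting was not given in the sources used here, so reads in that overlap cannot be assigned with certainty.

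Col6a6 (ENSMUSG00000043719, chromosome 9, 105687809 to 105828160, minus strand) stood at 6.37, 9.24, 7.41, 7.29 and 5.52 CPM in non-trained males. Non-trained females had 0.364, 1.64, 5.09, 1.27 and 1.22 CPM. All 5 males were above all 5 females, although female library 3 came close to the lowest male. The log2 difference was 1.90 (SE 0.43, edgeR adjusted p = 0.015). With 1 library left out it ran from 1.61, without female library 1, to 2.67, without female library 3, and passed each time. It was 1.89 and no longer passed when only these 2 groups were fitted (adjusted p = 0.079).

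Trained males had 4.68, 6.11, 4.92, 4.71 and 4.12 CPM of Col6a6 and trained females 2.58, 0.859, 2.13, 2.78 and 1.95 CPM. Here too every male library was above every female one, as held in that direction for 3.92% of all genes. The log2 difference in trained mice was 1.25 (SE 0.43, edgeR adjusted p = 0.092), which missed the threshold. DESeq2, limma-voom and a fit of only these 2 groups passed it, with adjusted p of 0.032, 0.046 and 0.013. Beside Col6a3, the chain with which it shares its general build, Col6a6 was a small fraction: the TPM ratio was 0.0758 ± 0.0255 in non-trained males and 0.0233 ± 0.0184 in non-trained females (SD, n = 5 each). This ratio depends on the length used: its medians were 0.0654 and 0.0159 in TPM, and 0.120 and 0.0396 in CPM per kilobase of the longest transcript, where Col6a3 has 10106 bases against a median deposited length of 5265.

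The stretch before the Col6a6 start, chr9:105828161-105828335 (GRCm38.p6, RefSeq, minus strand), is shown for the member with the largest sex difference in non-trained mice; capitals mark matches to GGGCGG, the GC box, on either strand.
Col6a6 promoter: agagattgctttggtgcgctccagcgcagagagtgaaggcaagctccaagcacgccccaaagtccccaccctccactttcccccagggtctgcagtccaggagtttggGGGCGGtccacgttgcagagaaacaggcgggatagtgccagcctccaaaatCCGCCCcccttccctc
Of the 44 members 35 had a RefSeq window of 250 bases before the start, and 21 of the 35 (60.0%) held GGGCGG on either strand, beside 32.7% of 32851 windows of the same length. CCAAT was found in 37.1% of the members' windows and 33.8% of all, and TATAAA in 14.3% and 12.4%. AGAACA, 1 arm of the androgen receptor motif, was in 2 members' windows (5.71%), beside 16.1% of all windows. Neither the full motif (AGAACA, any 3 bases, TGTTCT) nor the oestrogen receptor motif (GGTCA, any 3 bases, TGACC) was found in a member's window, and over all windows they were found in 0.00913% and 0.0639%. AGAACA is part of that full motif, both strands were searched, and a match describes letters only. Members were counted by gene and all windows singly, without choice of gene type, so the shares set side by side differ in unit.

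In trained mice no member passed the edgeR threshold between the sexes (0 of 38), beside 5.6% of all genes (3.39% higher and 2.22% lower). At an unadjusted p under 0.05 there were 4, beside 20.7% of all genes: Col19a1, Col6a6, Col7a1 and Col17a1, and all 4 had higher values in males. DESeq2 called 3 members and limma-voom 1. Col19a1, a fibril-associated chain, had the smallest p, with a log2 difference of 1.51 (SE 0.46, edgeR adjusted p = 0.057). Col7a1 differed by 0.82 (SE 0.29, edgeR adjusted p = 0.1). Groups did not overlap for Col6a6, Col17a1 and Col8a1, a hexagonal network chain of vessel walls. All 3 were higher in males, beside 3.92% of all genes. Lower without overlap were 0 members, beside 3.46% of all genes. For Col17a1 the lowest male had 0.276 CPM and the highest female 0.272 CPM. In TPM its trained males (0.12 to 0.51) and trained females (0.01 to 0.63) overlapped.

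Averaged over both training states, 7 of 38 members (18.4%) were higher in males and none was lower. All genes were called in 17.9% of cases, so the members' share was near the background as a whole. In the direction of higher in males alone, the background was 9.91%, and 8.03% of all genes were lower. At an unadjusted p under 0.05 there were 12 members, beside 31.5% of all genes. With all 10 males set against all 10 females, no member was free of overlap, beside 1.02% of all genes higher and 0.516% lower. Scaled by library size without TMM, 2061 of 2743 called genes were higher in males, where the TMM scale gave 1556 of 2817, and 8 members were called. Without female non-trained library 1 the count was 10, and without each of 5 other libraries (female non-trained 2, female trained 1, female trained 2, male non-trained 5 and male trained 3) it was 4. Only Col4a4, at 1.01 (SE 0.23, edgeR adjusted p = 0.0053), and Col6a6, at 1.57 (SE 0.30, edgeR adjusted p = 0.0016), passed under every alternative run for this average.

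Among type IV genes Col4a5, an X-linked chain, was the other one that rose. Its 10 male libraries ran from 2.35 to 5.45 CPM (median 4.09) and its 10 female libraries from 1.06 to 3.73 CPM (median 2.58). Of the male libraries 6 lay above all females, and the ranges overlapped. The log2 difference was 0.56 (SE 0.18, edgeR adjusted p = 0.032). With 1 library left out it kept the size, 0.45 to 0.64, but adjusted p reached 0.065, and 8 of the 20 libraries each ended the call when left out. Part of the sequence before its start, chrX:141475169-141475384 (GRCm38.p6, RefSeq, plus strand), is printed because the gene adjoins Col4a6; capitals mark CCAAT.
Col4a5 promoter: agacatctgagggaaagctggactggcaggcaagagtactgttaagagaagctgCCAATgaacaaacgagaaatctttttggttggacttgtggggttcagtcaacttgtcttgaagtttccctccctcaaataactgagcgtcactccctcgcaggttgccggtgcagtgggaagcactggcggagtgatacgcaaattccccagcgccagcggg
Col4a6 itself, at 0.171 TPM, differed by 0.44 (SE 0.32) and did not pass (edgeR adjusted p = 0.37). The abundant pair Col4a1 and Col4a2 differed by only 0.15 (SE 0.15) and 0.18 (SE 0.13), with edgeR adjusted p of 0.56 and 0.35. Col4a1 in non-trained males was 146, 145, 105, 148 and 107 CPM and in non-trained females 41.9, 89.97, 98.5, 157 and 109 CPM, with no male library above the highest female.

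Of 10 fibrillar members tested, 1 was called higher in males, Col5a2, a type V chain that sets fibril diameter together with Col5a1. It ran from 17.1 to 42.2 CPM in males (median 28.0) and from 4.19 to 23.5 CPM in females (median 18.0), with 7 of 10 males above every female. The log2 difference was 0.74 (SE 0.25, edgeR adjusted p = 0.046), and 13 of the 20 libraries each ended the call when left out, with adjusted p up to 0.093. Col5a1, named after its values were seen, differed by 0.69 (SE 0.24) and lay just outside (edgeR adjusted p = 0.056).

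The most abundant fibrillar chains had larger spreads. Col3a1 stood at 154, 165, 81.4, 314 and 146 CPM in non-trained males and at 7.19, 57.2, 107, 100 and 120.5 CPM in non-trained females. In trained males it was 159.7, 134, 167, 59.8 and 64.5 CPM and in trained females 55.4, 26.8, 102, 77.7 and 109.8 CPM. Male values reached higher, but low male and high female libraries overlapped in both training states. Its log2 sex difference was 0.90 (SE 0.39, edgeR adjusted p = 0.13). The type I chains Col1a1 and Col1a2 differed by 0.41 (SE 0.38) and 0.70 (SE 0.38), with edgeR adjusted p of 0.5 and 0.22. Col1a1 had 99.8 ± 52.0 CPM in non-trained males and 66.5 ± 47.4 in non-trained females, and Col1a2 had 143 ± 51.4 and 79.8 ± 53.7 CPM (SD, n = 5 each).

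The 3 classical type VI chains had similar differences, none past the threshold. Col6a1 was 65.4, 64.2, 42.2, 68.3 and 53.3 CPM in non-trained males, 8.42, 31.0, 50.2, 46.7 and 53.3 in non-trained females, 42.6, 57.5, 61.2, 35.4 and 43.2 in trained males and 41.2, 19.3, 45.1, 40.1 and 42.5 in trained females. In non-trained mice 3 of 5 males were clearly above every female, and male library 5 was level with the highest female. The log2 sex differences were 0.49 for Col6a1 (SE 0.24), 0.57 for Col6a2 (SE 0.26) and 0.64 for Col6a3 (SE 0.23), with edgeR adjusted p of 0.18, 0.14 and 0.061. Col6a3 did pass with DESeq2 (adjusted p = 0.039), with limma-voom (0.029), and when either of the female non-trained libraries 1 and 3 was left out (edgeR adjusted p = 0.044 and 0.038).

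The other 3 called members belong to smaller groups. Col7a1, best known from skin, where it anchors the basement membrane to the dermis, ran from 17.3 to 39.8 CPM in males (median 29.9) and from 8.97 to 27.7 CPM in females (median 16.0). Its log2 difference was 0.68 (SE 0.20, edgeR adjusted p = 0.027), and it did not pass without male non-trained library 3 (0.59, adjusted p = 0.056). Without a low-count filter it did not pass either (0.67, edgeR adjusted p = 0.074). The median deposited length of Col7a1 was 2936 bases, where the longest annotated transcript has 9250. Female non-trained library 1, lowest for most collagens, was the second highest female non-trained value for this gene at 25.4 CPM.

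Col19a1 ran from 0.526 to 1.74 CPM in males and from 0.0912 to 0.914 CPM in females, a log2 difference of 1.10 (SE 0.32, edgeR adjusted p = 0.022). Without male trained library 3 its adjusted p was 0.0502. Col17a1, a transmembrane chain of hemidesmosomes in epithelia, was low throughout: 0.306, 0.0933, 0.346, 0.238 and 2.01 CPM in non-trained males, 1.87, 0.276, 0.290, 0.316 and 0.775 in trained males, 0.447, 0.122, 0.292, 0 and 0.0762 in non-trained females and 0.0688, 0.215, 0.272, 0.256 and 0.0349 in trained females. A pair of male libraries, non-trained 5 and trained 1, stood far above the rest. On the TPM scale, where the deposited length also moves, group means were 0.398, 0.274, 0.0480 and 0.216 in the same order. The log2 difference of 1.83 (SE 0.60, edgeR adjusted p = 0.039) was 1.18 without male non-trained library 5 (adjusted p = 0.15) and 1.45 without male trained library 1 (adjusted p = 0.095), and 9 of the 20 libraries each ended the call when left out. The only negative difference with an unadjusted p under 0.05 was that of Col22a1, a chain of the muscle to tendon junction, at -0.50 (SE 0.19, edgeR adjusted p = 0.072); it was named after its value was seen.

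**Figure D3:**
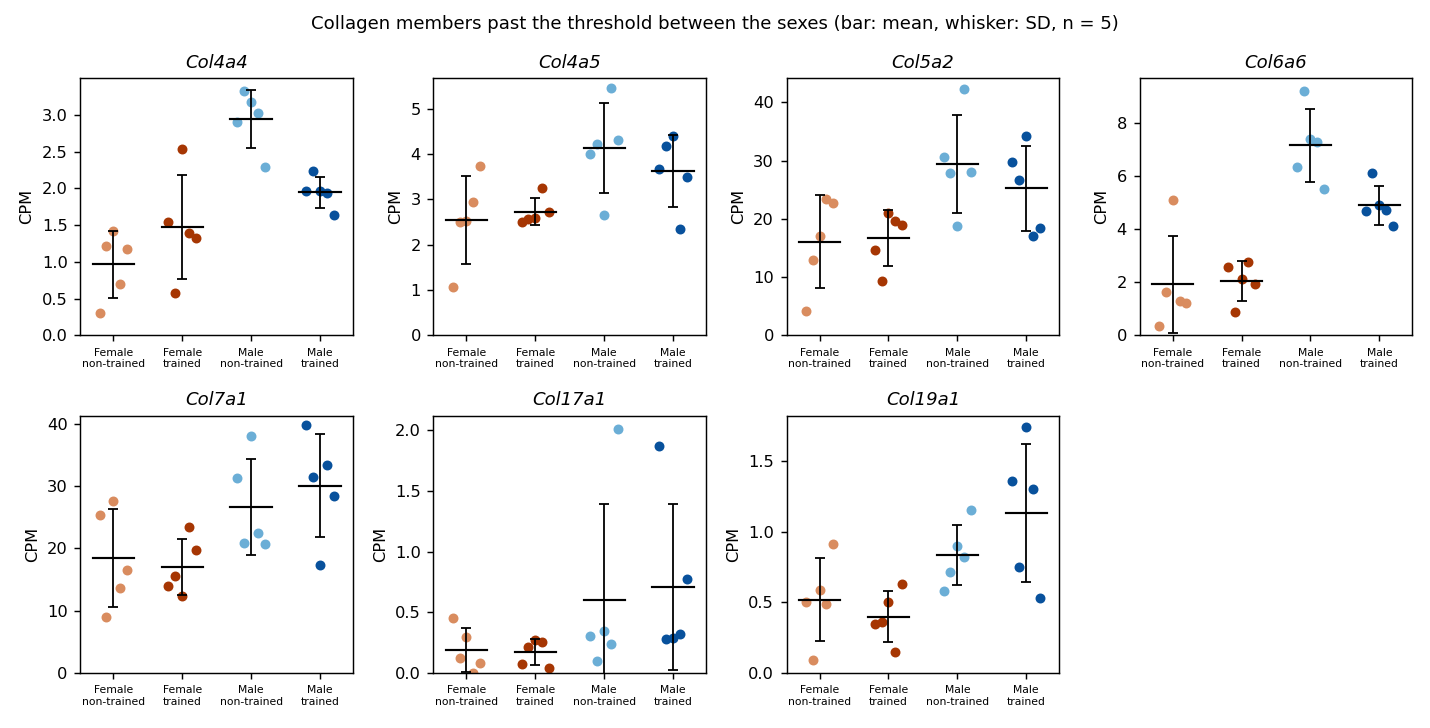
CPM per library of the 7 collagen genes called between the sexes, by group (points are libraries, the bar is the mean and the whisker the SD, n = 5; whiskers that reach below 0 end at the axis). In non-trained mice the Col4a4 and Col6a6 points of males lie wholly above those of females, and for Col17a1 the male means of 0.599 and 0.706 CPM rest on few libraries.

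By class, the median log2 sex difference was 0.39 for the 10 fibrillar, 0.44 for the 6 type IV and 0.57 for the 5 type VI members tested, beside 0.00 over all genes. In non-trained mice the medians were 0.66, 0.57 and 0.75, and in trained mice 0.18, 0.31 and 0.43. Those in non-trained mice include female non-trained library 1. They ran from 0.47 to 0.85, from 0.46 to 0.69 and from 0.51 to 0.92 with 1 library left out. With 1 library left out, the medians in trained mice ran from 0.01 to 0.31, from 0.11 to 0.38 and from 0.22 to 0.53, each lowest without female trained library 2. Of the 38 members, 33 had a value above 0 in non-trained mice, 26 in trained mice and 32 in the average, beside 50.8%, 50.5% and 50.6% of all genes. Several members rose and fell together over libraries (r = 0.93 for Col1a1 with Col6a1), so these counts are not 38 separate observations. Female non-trained library 1 held the lowest value for 30 of the 38. The same limit holds for the counts above and below 0 with training and in the interaction. The 3 classes lay in the same direction, with ranges that overlapped: fibrillar members ran from -0.29 to 0.90 in the average, type IV members from 0.15 to 1.01 and type VI members from 0.22 to 1.57. No test compared the classes with each other.

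Most fibroblast markers had higher values in males as well. In non-trained mice the 8 markers summed to 1366 to 1613 CPM in males and to 320.2 to 1248 CPM in females. In trained mice the ranges were 924 to 1467 CPM and 833 to 1162 CPM. Averaged over training, 3 of the 8 (Dcn, Pdgfra and Gsn) were higher in males and none was lower, with a median of 0.39. Of all genes 9.91% were called higher and 8.03% lower in this average, which also serves for the lists below. Within non-trained and within trained mice 0 of the 8 were called. In trained mice 6 of the 8 were above 0, with a median of 0.14. All 5 macrophage markers were higher in males, among them Cd68 (2.02), Adgre1 (2.03) and Cd163 (1.14), and their sums ran from 47.0 to 233.7 CPM over the 10 males and from 15.1 to 53.2 CPM over the 10 females. Dcn and Dpt stand in both the fibroblast and the proteoglycan list. None of 7 tenocyte, 7 endothelial, 6 pericyte or smooth muscle, 7 Schwann cell, 5 adipocyte or 3 satellite cell markers was called. Of 6 neuromuscular junction genes 1, Musk (1.56), was higher, and of 10 muscle genes 2, Myh7 (-2.42) and Acta1 (-0.20), were lower. No gene of these lists was at 0 in all libraries. The part of these cell types in the collagen differences was not tested.

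No collagen gene passed the test between trained and non-trained mice. In females, in males, in the average of both sexes and in the interaction 0 of 38 members passed the edgeR threshold, beside 0, 0, 0.0127% and 0 of all genes. At an unadjusted p under 0.05 the counts were 1, 1, 0 and 2 members, beside 8.57%, 4.3%, 9.17% and 4.18% of all genes. DESeq2 and limma-voom called 0 members in each of these 4 comparisons too. Simulated counts for the sex comparisons recovered 64.9% of 2-fold changes in non-trained mice, and training was not simulated. The changed genes were drawn from all genes tested. Collagens varied more over libraries (median SD of log2 CPM 0.69 against 0.28), and the share recovered for genes so variable was not measured.

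In females the members with the smallest p were Col23a1, a transmembrane chain, at 0.74 (SE 0.29), Col4a4 at 0.60 (SE 0.34) and Col26a1 at 0.84 (SE 0.66), with edgeR adjusted p of 0.5, 0.66 and 0.79. Col23a1 stood at 3.37, 2.04, 3.13, 4.57 and 4.74 CPM in trained and 1.06, 1.98, 1.26, 2.99 and 3.51 CPM in non-trained females, which overlapped. Values of the 38 members were split 20 above and 18 below 0 in females, beside 50.9% of all genes above 0. No member was free of overlap in females, beside 0.637% of all genes higher and 0.713% lower.

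In males they were split 9 above and 29 below 0, beside 49.9% of all genes above 0. The smallest p were those of Col5a3, a type V chain, at -0.62 (SE 0.29), Col6a5 at -1.53 (SE 0.80) and Col4a4 as given above, all with an edgeR adjusted p of 0.99. Class medians in males were -0.41 for fibrillar, -0.35 for type IV and -0.29 for type VI members, and in females -0.05, 0.08 and 0.00. With 1 library left out, the medians in males ran from -0.55 to -0.25, from -0.44 to -0.26 and from -0.39 to -0.21. Those in females took both signs in all 3 classes, from -0.26 to 0.14, from -0.08 to 0.22 and from -0.25 to 0.21, with the lowest value of each without female non-trained library 1. Trained and non-trained libraries overlapped for 36 of the 38 members in males, the exceptions being Col4a4 and Col6a5, both lower in trained males. Lower without overlap were 0.554% of all genes, and higher without overlap 0.535%. Col6a5 stood at 0.258, 0.0829, 0.322, 0.0703 and 0.221 CPM in trained and 0.704, 0.373, 0.415, 0.886 and 0.415 CPM in non-trained males, under 1 CPM throughout.

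Over both sexes the smallest p belonged to Col4a6 (-0.50), Col26a1 (0.64) and Col1a1 (-0.52), none past the threshold, and no member was free of overlap over both sexes, beside 0.00637% of all genes (edgeR adjusted p = 0.68, 0.72 and 0.74). The interaction, the training difference in males minus that in females, was below 0 for 32 of 38 members, beside 50.1% of all genes above 0. Its smallest p were those of Col4a4, Col23a1 (-0.93, SE 0.41) and Col5a3 (-0.74, SE 0.41), with an edgeR adjusted p of 0.999 for each. The training differences of the 2 sexes share no libraries. The sex difference in non-trained mice and the training differences do share the non-trained libraries, female non-trained library 1 among them. All 8 fibroblast markers had an interaction value below 0 as well, with a median of -0.38, and none was called. The 7 Schwann cell markers were all above 0 with training in females (median 1.02) and all below 0 in males (median -0.54), with none called. The 5 adipocyte markers had medians of 0.82 and -0.13. The part of these cell types in the collagen values was not tested.

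**Figure D4:**
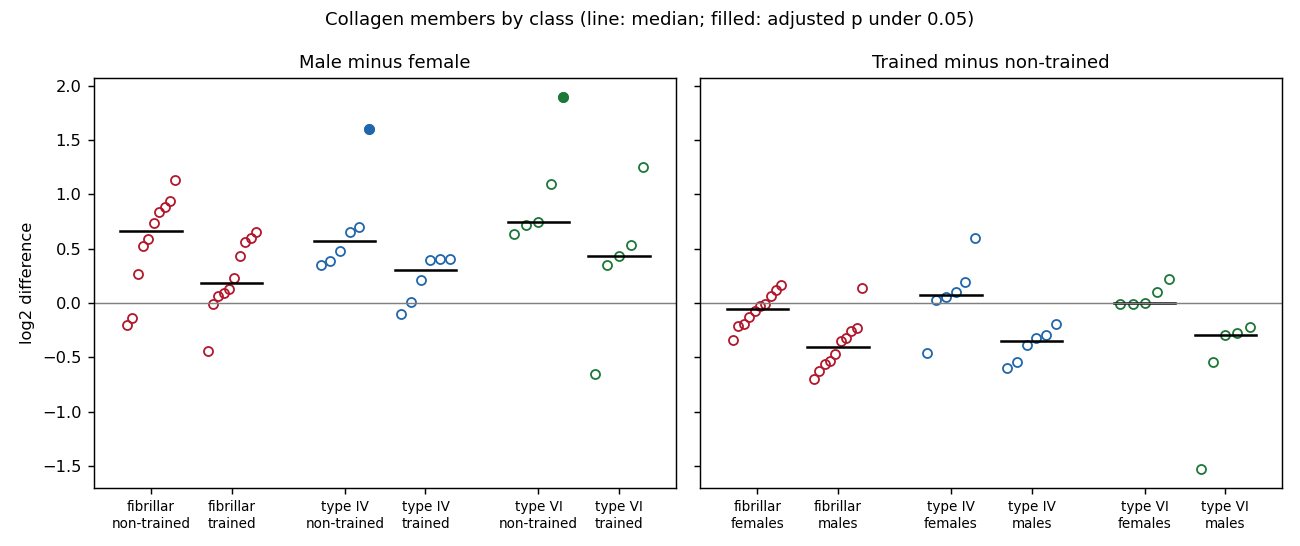
Log2 difference of each fibrillar, type IV and type VI member tested, males minus females in each training state (left) and trained minus non-trained in each sex (right); lines are class medians and filled points have an adjusted p under 0.05. Col4a4 at 1.61 and Col6a6 at 1.90 are the filled points, and in males most training differences lie below 0.

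The genes that build, tie and degrade collagen differed between the sexes in a mixed way. Percentages of all genes called are those given above for the average over training. Of 17 genes for modification and folding of the chains, 2 were higher and 3 lower in males, among them P4ha1 (-0.41), a subunit of the enzyme that hydroxylates proline, P3h2 (-0.93), a prolyl 3-hydroxylase, and Crtap (0.50), a partner of the prolyl 3-hydroxylase complex. Of 12 genes for propeptide cleavage and crosslinking, 2 were higher, Lox (0.64), which crosslinks fibrils, and Adamts2 (0.53), which removes the N-propeptide. Of 12 fibril proteoglycans and glycoproteins, 2 were higher, Tnxb (0.65) and Dcn (0.63), both of which bind fibrils.

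Of 12 genes for degradation and its inhibitors 4 were higher, among them the gelatinase Mmp2 (0.79) and the inhibitors Timp2 (0.49) and Timp3 (0.35). Of 10 basement membrane partners 5 were higher and 1 lower. The laminin chains Lama2 (0.50) and Lamb1 (0.53) were higher and Lamb2 (-0.41), the chain known from the neuromuscular junction, was lower. Of 11 collagen receptors 3 were higher and 1 lower, with Ddr2 (0.58), a receptor for fibrillar collagen, and Lair1 (1.19), an inhibitory receptor of immune cells, higher and the integrin chain Itga10 (-0.71) lower. Of 10 TGF-beta signalling genes, which drive collagen transcription in fibroblasts, 3 were higher and 1 lower: the ligand Tgfb1 (0.62) and the receptor Tgfbr2 (0.48) were higher, the ligand Tgfb3 (-0.45) lower. Between training states none of these genes was called in either sex, over both sexes or in the interaction.

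Ratios of TPM were taken between chains that share a protein and between networks. Type I collagen is built from Col1a1 and Col1a2, and their TPM ratio had a median of 0.62 over 20 libraries (0.447 to 0.954). The highest ratio was in female non-trained library 1 and the lowest in male trained library 5. By group it was 0.753 ± 0.132 in non-trained females, 0.681 ± 0.0945 in trained females, 0.590 ± 0.0915 in non-trained males and 0.521 ± 0.0801 in trained males (SD, n = 5 each). Col4a1 to Col4a2 had a median ratio of 1.54 (1.39 to 2.005) and Col6a1 to Col6a2 one of 1.002 (0.807 to 1.39). Across networks, Col1a1 to Col4a1 ran from 0.13 to 1.13.

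Over the 20 libraries the log2 CPM of Col1a1 and Col1a2 correlated with Pearson's r = 0.97 and Spearman's rho = 0.92 (permutation test, adjusted p = 1.8e-05 and 2.3e-05 over 7 pairs). The raw p of 1e-05 for both is the smallest that 100000 resamples can give. For Col6a1 and Col6a2 r was 0.98 and rho 0.93, for Col3a1 and Col5a2, neighbours on chromosome 1, r was 0.98 and rho 0.93, and for both pairs the permutation p and adjusted p were the same as for type I. For Col4a1 and Col4a2 r was 0.94 and rho 0.74 (permutation p = 2e-05 and 0.0003, adjusted 2.8e-05 and 0.00042). Without the 2 libraries farthest from the median of the first gene, r was 0.93, 0.94, 0.93 and 0.85 for these 4 pairs.

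Between classes, Col1a1 and Col6a1 correlated with r = 0.93 and rho = 0.84 (permutation p = 1e-05 and 2e-05, adjusted 1.8e-05 and 3.5e-05), and with r = 0.80 without the 2 farthest libraries. Type IV followed the others less closely. Col1a1 and Col4a1 had r = 0.76 and rho = 0.47 (permutation p = 0.0017 and 0.037, adjusted 0.0020 and 0.037). Col4a1 and Col6a1 had r = 0.78 and rho = 0.51 (permutation p = 0.0024 and 0.024, adjusted 0.0024 and 0.028). Without female non-trained library 1 these 2 were 0.43 and 0.37 (permutation test, adjusted p = 0.077 and 0.11), and without the 2 farthest libraries r was 0.56 and 0.42. On log2 CPM the size of r for both thus depends on that library, while rho of Col1a1 and Col4a1 was 0.49 without the 2 farthest. On log2(TPM + 1) r was 0.81 and 0.86, and 0.62 and 0.67 without that library. On deviations from the group means all 7 pairs gave r between 0.75 and 0.98, but these 2 had 0.48 and 0.47 without that library. Whether the correlations between classes differ from those within was not tested. The points share the scaling of each library.

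**Figure D5:**
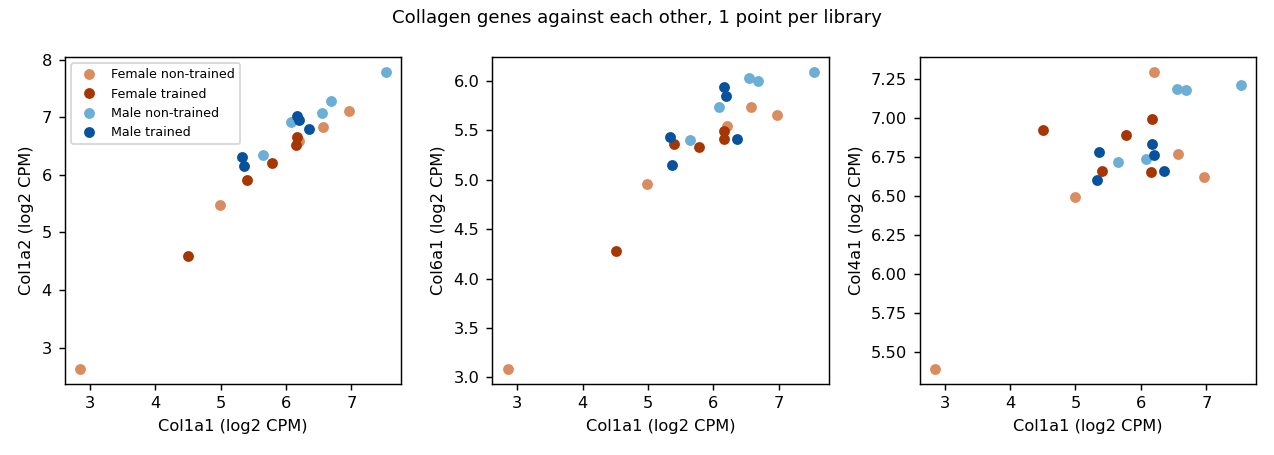
Log2 CPM of Col1a2, Col6a1 and Col4a1 against that of Col1a1, 1 point per library, coloured by group. The points of Col1a2 follow a line (r = 0.97), and those of Col4a1 scatter apart from the lowest point, female non-trained library 1.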

How the data were processed

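RNA of 20 libraries was read from the deposited tables of RSEM, 1 per library. The authors deposited expected counts, estimated by RSEM and not always whole, beside TPM and FPKM, per the file headers. The submitters' processing notes name limma, edgeR, RSEM 1.3.1, STAR 2.5.1, cutadapt, Trim Galore and the build GRCm38, without roles; the release of the annotation was not given in the sources used here. RSEM shares reads among similar genes by estimation. Symbols came from GENCODE M21 for 53360 of 53465 identifiers, the other 105 holding 0.00673% of counts, and promoter sequences from RefSeq (GRCm38.p6).

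Expected counts were rounded. The deposited TPM were used for levels, and FPKM only as an alternative for class shares. After filterByExpr (minimum count 10) 15709 genes were scaled by TMM and fitted with edgeR 4.0.16 (robust quasi-likelihood, 1 coefficient per group, 16 residual degrees of freedom) under R 4.3.3, p adjusted by Benjamini-Hochberg. Log2 CPM use a prior count of 2. SE is the log2 difference divided by the square root of F. Of 44 members 38 were tested; Col2a1, Col6a4, Col9a2, Col9a3, Col10a1 and Col25a1 did not pass the filter. The procedure was tested on simulated data with 15457 genes left: it recovered 44.8% of 1.5-fold and 64.9% of 2-fold changes between non-trained sexes, and 66.7% and 79.4% for the average over training. The changed genes were drawn from all genes, not from collagens alone.

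Members described in full are those called in any of 7 comparisons and the 3 highest by TPM in the fibrillar, type IV and type VI classes; where none was called, the 3 with the smallest p are named. Members, classes and gene lists were chosen with earlier results of these data known. Alternatives were DESeq2 1.42.0, limma-voom (limma 3.58.1), RLE factors, unscaled library size, a stricter filter on low counts or none, only the groups compared, log2(TPM + 1) and each library left out.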

Additional observations from a re-analysis of the deposited data

Results flagged for a closer look

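In groups of 5, a library was picked out where its gap to the nearest other, relative to the range of the group, was larger than chance gives in about 1 group in 20. Of 60 groups, 15 members in 4 groups each, 6 held such a library. By that rate some of the 60 are expected to, and flags of members that vary together are not separate. Female non-trained library 1, lowest for 30 of the 38 members tested, was not picked out. In trained females, library 2 was low for all 3 classical type VI chains: Col6a1 stood at 19.3 CPM (others 40.1 to 45.1), Col6a2 at 14.0 CPM (others 40.8 to 46.9) and Col6a3 at 15.6 CPM (others 37.6 to 42.8). Its type IV chain Col4a1 stood within its group at 121 CPM. Low values there were not particular to type VI: its fibrillar sum, 37.4 TPM, was the lowest of its group (others 63.4 to 102.7). Sums of fibroblast markers, 833 CPM, and tenocyte markers, 170 CPM, were also lowest there, against group medians of 1062 and 240 CPM. Their part in the type VI values was not tested. In the same group, library 4 was high for Col4a5, at 3.25 CPM with the others at 2.51 to 2.72. In non-trained females, library 3 was high for Col6a6, at 5.09 CPM with the others at 0.364 to 1.64. In non-trained males, library 5 was high for Col17a1, at 2.01 CPM with the others at 0.0933 to 0.346.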

How the results depend on the processing

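The depth of 22043145 to 38483572 counts limits low members such as Col17a1 and Col6a5, where single reads move values, and 5 libraries per group leave the 1.5-fold changes of the simulation mostly uncalled in non-trained mice. No paired analysis was possible because the labels give the groups no shared replicate numbers. Of 146 other settings for counts of called members, 134 kept the count or stayed within 1.5 times of it, and 0 against 0 was taken as kept. The training comparisons and the interaction had 0 members called in the main fit and with each library left out. Their settings add to the 134 without showing how steady a call is. The class medians for training in females crossed 0: with 1 library left out they ran from -0.26 to 0.14 for fibrillar, from -0.08 to 0.22 for type IV and from -0.25 to 0.21 for type VI members, and limma-voom gave 0.23 for fibrillar members. The other class medians, the correlations and the sex differences checked for members described in full kept their sign in every setting run. Training and interaction values of single members, and other members named, were not followed over the settings. Called members in non-trained mice were 2 and became 1 with only the groups compared (2 to 3 with 1 library left out). In trained mice the count of 0 became 3 with DESeq2, 1 with limma-voom, 1 with library size without TMM and 2 with only the groups compared (0 to 1 with 1 library left out). For the average over training the count of 7 became 4 without a low-count filter (4 to 10 with 1 library left out), and DESeq2 gave 10, limma-voom 8 and the stricter filter 6. The calls that ended without a low-count filter were those of Col5a2, Col7a1 and Col17a1. Correlations ran from 0.43 to 0.84 for Col1a1 with Col4a1 and from 0.37 to 0.89 for Col4a1 with Col6a1 with 1 library left out. The added CPM per kilobase scale, chosen after the data were seen, put the fibrillar share at 40.0%, 38.5%, 48.9% and 44.4% in the 4 groups. The cause of these changes was not tested.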
